A study of Mus musculus with 6 samples.

Results

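Tnfrsf9, Tnfsf9, Tnfrsf4, Tnfrsf18, Cd27, Cd40, Tnfsf14 and Ltb are 8 genes of the tumour necrosis factor (TNF) receptor and ligand family that act in costimulation of lymphocytes and antigen-presenting cells. They were taken by symbol, 8 of the 32285 genes listed for each library. The group was chosen by a difference already seen in these data, the lower level of Tnfrsf9 in macrophages of OE-MLKL tumours, so that the macrophage values below are a description and carry no test. The other members were added as family relatives.

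The libraries came from primary tumours that grew in the pancreas of C57BL/6 mice after orthotopic injection of KPC cells, a mouse pancreatic cancer line. In the OE-Vector group the injected cells carried an empty vector, and in the OE-MLKL group they were labelled as overexpressing MLKL, the pore-forming protein that executes necroptosis. The hosts were wild type and immunocompetent, 6 to 8 weeks old by the study's description of its mice, and tumours were collected 4 weeks after injection for droplet single-cell RNA sequencing with 3' unique molecular identifiers (UMIs). The construct was carried by the injected cells, so every immune, stromal and endothelial cell compared here was a host cell. Whether the line was a single clone was not given in the sources used here. A count matrix was analysed for OE-Vector 1 and for OE-MLKL 1, 2 and 3, and the other 2 OE-Vector samples were not analysed here.

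Most costimulatory TNF receptors sit on T cells, are raised or maintained by antigen receptor signalling, and pass signals through TRAF adaptors to NF-kappaB, which supports survival, division and cytokine production. Their ligands are carried mainly by activated dendritic cells, macrophages and B cells. Cd40 runs in the opposite direction, since the receptor sits on the antigen-presenting cell and its ligand on helper T cells. In tumours several of the receptors are known from both exhausted or activated CD8 T cells and regulatory T cells, and agonist antibodies to them have been developed.

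The 4 libraries held between 150591289 and 169978362 UMIs. After filtering, 63182 cells remained, 13489 to 18808 in a library, with a median of 1670 to 4218 UMIs per cell. Pairs of libraries shared 73 to 134 barcodes. The libraries did not separate by label alone. Of 38 clusters, 10 clusters with 18702 cells drew at least 90% of their cells from OE-Vector 1 and OE-MLKL 3 together, and another 10 clusters with 30756 cells drew as much from OE-MLKL 1 and OE-MLKL 2. Levels are given as CPM, the UMIs of a gene divided by all UMIs of the class in that library and multiplied by 1000000. Mlkl itself did not mark the labels in cancer cells, where it was at 16.3 CPM in OE-Vector 1 and at 8.79, 12.6 and 19.8 CPM in OE-MLKL 1, 2 and 3; whether transcripts of the transgene are counted at the mouse gene was not established. Values without OE-MLKL 3 are given where leaving it out changed the call of a member in a class, and for some others, and OE-MLKL stands for the libraries labelled so.

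Classes were built from clusters made without the member and pathway genes, and were named by marker lists, so that macrophages stands for macrophage-like cells, and so on. Of 10 markers per list, 10 were highest in their own class for NK cells, B cells, macrophages, neutrophils and endothelial cells, 9 for T cells, dendritic cells and fibroblasts, and 6 for cancer cells, where Krt19, Epcam, Cdh1 and Msln were higher elsewhere. T cells were divided by Cd8a or Cd8b1, Cd4 and Foxp3 UMIs, and mature and cDC1 dendritic cells were gated within the dendritic cell class by Ccr7 or Fscn1 and by Xcr1 or Clec9a UMIs. A regulatory T cell in which no Foxp3 UMI was detected can fall into the conventional CD4 gate. Levels by class are a description. As a reference for free RNA, the same level was measured in empty droplets of at most 100 UMIs. A class at or below the empty droplets of its own library is called background here. The word describes a level only, and whether the UMIs of such a class came from free RNA was not tested. Single cancer cells, for example, held up to 11 Tnfrsf9 UMIs in OE-Vector 1 and up to 6, 9 and 16 in OE-MLKL 1, 2 and 3.

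Tnfrsf9, which encodes 4-1BB (CD137), the receptor that sustains CD8 T cell expansion and survival, was highest in Foxp3 T cells. There it was at 732 CPM in OE-Vector 1 (95% exact Poisson interval 643 to 831, counting error only) and at 590, 449 and 477 CPM in OE-MLKL 1, 2 and 3 (505 ± 74.6, SD, n = 3). Among lymphocytes CD8 T cells came next, with 283 CPM in OE-Vector 1 and 381, 251 and 227 CPM in the OE-MLKL libraries (286 ± 83.2, SD, n = 3). In each library the Foxp3 T cells were above the CD8 T cells, and the CD8 T cells above the conventional CD4 T cells, which had 170 CPM in OE-Vector 1 and 200, 109 and 157 CPM in OE-MLKL 1, 2 and 3.

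The next classes in the order could not be separated by their spread over libraries. NK cells had 185 CPM in OE-Vector 1 and 163, 96.9 and 65.5 CPM in the OE-MLKL libraries. One NK cell of OE-Vector 1 carried 31 of its 90 UMIs, and without it the level was 127 CPM, below OE-MLKL 1. Mature dendritic cells, the activated state that carries antigen to lymph nodes, had 179 CPM in OE-Vector 1 and 112, 172 and 120 CPM in the OE-MLKL libraries. cDC1 cells, the cross-presenting dendritic cells, held 5 Tnfrsf9 UMIs in OE-Vector 1, none in OE-MLKL 1 and 2, and 3 in OE-MLKL 3. Of the 128 Tnfrsf9 UMIs of the dendritic cell class, 115 lay in the mature gate.

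In all, 5 classes were above the empty droplets of the same library in all 4 libraries, namely Foxp3, CD8 and conventional CD4 T cells, NK cells and mature dendritic cells. Empty droplets were at 32.8 CPM in OE-Vector 1 and at 11.0, 8.53 and 14.7 CPM in OE-MLKL 1, 2 and 3, so the free-RNA level was itself highest in OE-Vector 1. Neutrophils and cancer cells were below the droplets in every library, and cDC1 cells were so in OE-Vector 1 and OE-MLKL 3. The absence of a UMI in the cDC1 cells of OE-MLKL 1 and 2 allows up to 12.3 and 14.8 CPM (a floor of 3 UMIs), which is above their droplets. Endothelial cells were few and uneven, with 137 UMIs in 26 cells of OE-Vector 1 (336 CPM), 0 in 5 cells of OE-MLKL 1, where the floor of 3 UMIs corresponds to 77.4 CPM, 4 in 13 cells of OE-MLKL 2 (38.6 CPM) and 41 in 26 cells of OE-MLKL 3 (146 CPM).

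**Figure D1:**
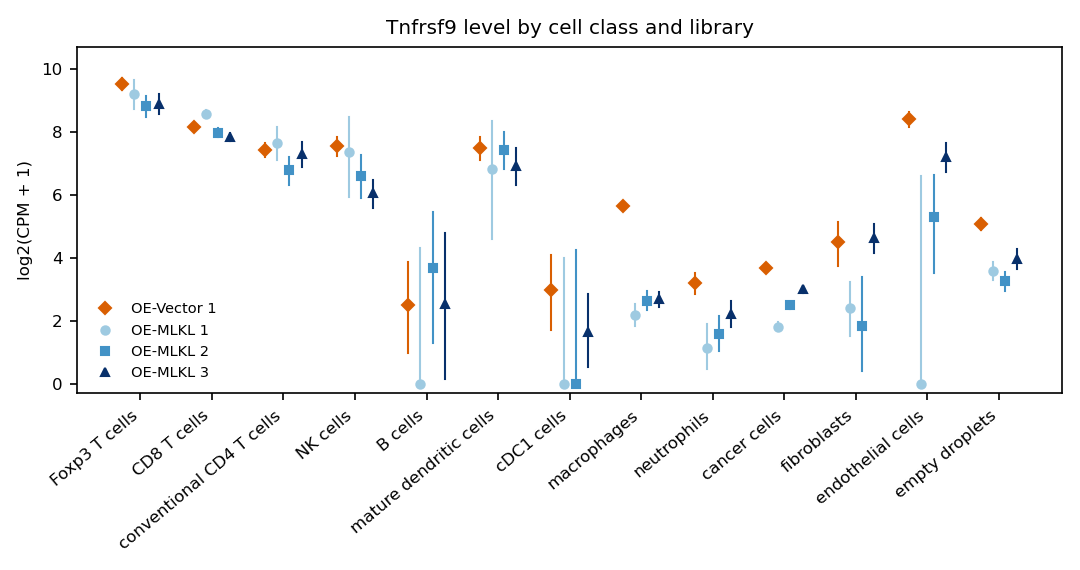
Tnfrsf9 level as log2(CPM + 1) on the vertical axis for 12 cell classes and the empty droplets, with 1 point per library (diamond, OE-Vector 1; circle, square and triangle, OE-MLKL 1, 2 and 3) and vertical lines for the exact 95% Poisson interval. Foxp3 T cells lie highest in all 4 libraries, and the macrophages of OE-Vector 1, at 49.3 CPM, stand apart from those of the 3 OE-MLKL libraries.

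Tnfrsf9 lies on chromosome 4 at 150914562 to 150946102 on the plus strand of GRCm38, and Camta1 overlaps it on the opposite strand. Camta1 was at 26.8 CPM in the macrophages of OE-Vector 1 and at 38.4, 29.5 and 23.9 CPM in those of OE-MLKL 1, 2 and 3, so it did not follow Tnfrsf9 across these libraries. RefSeq promoter windows (GRCm38.p6) were matched for 6 of the 8 members, in 7 windows, and none was matched for Tnfsf9 and Cd40. The 250 bases before each start are shown for Tnfrsf9, at chr4:150919905-150920154 and chr4:150927749-150927998 (both plus strand), and for Ltb, at chr17:35194257-35194506 (plus strand), since these members were lower in all OE-MLKL libraries in the most classes. Capitals mark matches to GGGANNNNCC on either strand, a pattern of the kappa B type that NF-kappaB can bind.
Tnfrsf9, first start: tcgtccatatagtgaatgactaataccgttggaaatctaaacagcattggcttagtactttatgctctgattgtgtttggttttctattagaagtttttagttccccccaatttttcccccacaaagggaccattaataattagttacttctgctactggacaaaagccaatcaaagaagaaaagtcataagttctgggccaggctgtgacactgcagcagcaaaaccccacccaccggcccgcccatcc
Tnfrsf9, second start: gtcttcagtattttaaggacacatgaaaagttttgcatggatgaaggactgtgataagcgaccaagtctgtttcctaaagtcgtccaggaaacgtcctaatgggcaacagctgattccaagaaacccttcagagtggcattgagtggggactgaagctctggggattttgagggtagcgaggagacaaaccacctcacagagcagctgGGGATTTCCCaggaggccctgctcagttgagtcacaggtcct
Ltb: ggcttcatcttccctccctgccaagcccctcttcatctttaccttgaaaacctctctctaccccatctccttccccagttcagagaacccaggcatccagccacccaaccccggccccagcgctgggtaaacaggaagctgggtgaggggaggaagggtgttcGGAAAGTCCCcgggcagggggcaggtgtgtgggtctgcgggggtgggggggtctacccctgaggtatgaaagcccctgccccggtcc

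The match at the second Tnfrsf9 start began 42 bases before it and was found on both strands, and that of Ltb lay on the minus strand 87 bases before the start. Tnfsf14 also held a match 51 bases before its start, and the windows of Tnfrsf4, Tnfrsf18 and Cd27 held none. The pattern was present in 3 of the 7 member windows and in 17.6% of all 32851 windows. Such a match is a description of letters and was not tested against any binding data.

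Among the 9303 genes with a mean of at least 10 CPM over 48 profiles (12 classes in 4 libraries), the 5 genes outside the family whose profile was most like that of Tnfrsf9 were Adora2a (Pearson r = 0.83 of log2(CPM + 1)), Il2ra (0.81), Cd247 (0.80), Camk4 (0.78) and Pdcd1 (0.77). These profiles share libraries, depth and cell classes, and the values are descriptive. Within the family, Cd27 (0.69), Tnfrsf4 (0.68) and Tnfrsf18 (0.64) were most like Tnfrsf9, followed by Ltb (0.53) and Tnfsf9 (0.23). Cd40 had little relation to it (-0.14). Tnfsf14 was below the mean level needed for this measure.

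In macrophages, the cells whose contrast chose the group, Tnfrsf9 was at 49.3 CPM in OE-Vector 1 (46.2 to 52.6) and at 3.58, 5.22 and 5.41 CPM in OE-MLKL 1, 2 and 3 (4.74 ± 1.004, SD, n = 3). These levels rest on 916, 43, 66 and 118 UMIs. The OE-MLKL libraries lay close together and far below OE-Vector 1, and over the class as a whole each was below its own empty droplets, whereas OE-Vector 1 was above them. The fitted log2 fold change, OE-MLKL over OE-Vector, was -3.49 and was -3.53 without OE-MLKL 3. It ranged from -3.65 to -2.90 over 13 alternatives, with the smallest size when putative doublets were kept. In OE-Vector 1, 267 of 2305 macrophages (11.6%) held a Tnfrsf9 UMI, against 31 of 2675 (1.16%), 38 of 2514 (1.51%) and 67 of 3388 (1.98%) in OE-MLKL 1, 2 and 3. After each cell was thinned to 500 UMIs the shares were 2.06% and 0.14, 0.22 and 0.33%. One macrophage of OE-Vector 1 carried 33 Tnfrsf9 UMIs.

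Tnfrsf9 was uneven among the macrophages themselves. They fell into 3 clusters, and cluster 12, led by Mmp12, Pf4 and Saa3, held 606 of the 916 UMIs of OE-Vector 1. In that cluster Tnfrsf9 was at 211 CPM in OE-Vector 1 (195 to 229) and at 46.4, 76.5 and 26.2 CPM in OE-MLKL 1, 2 and 3. Cluster 7, led by Cd72, Fcrls and Cx3cr1, had 20.8 CPM in OE-Vector 1 and 8.72, 5.98 and 3.73 CPM in the OE-MLKL libraries. In both clusters all OE-MLKL libraries were below OE-Vector 1. Cluster 4, led by F13a1, Mrc1 and Tns1, had 6.77 CPM in OE-Vector 1 and 1.59, 1.76 and 18.9 CPM in the OE-MLKL libraries, so there OE-MLKL 3 was above OE-Vector 1. The clusters were filled unequally, with 68.7% of the macrophages of OE-Vector 1 and 78.0% of those of OE-MLKL 3 in cluster 7, and 90.4 and 86.0% of those of OE-MLKL 1 and 2 in cluster 4. Cluster 12 was thus above the empty droplets in all 4 libraries, and clusters 7 and 4 were below them except for cluster 4 of OE-MLKL 3. Cluster 12 held 22.4% of the macrophages in OE-Vector 1 and 4.49, 5.29 and 16.4% in the OE-MLKL libraries. At clustering resolution 2, a cluster led by Mmp12, Mmp13 and Nos2 held 300 cells of OE-Vector 1 and 0, 4 and 3 of OE-MLKL. Another, led by Mmp12, Saa3 and Hmox1, held 6 and 50, 80 and 29. An unnamed cluster led by Prap1, also a leading gene of cluster 12, held 177 and 85, 55 and 533. Whether cluster 12 held the same kind of cells in each library was not tested.

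**Figure D2:**
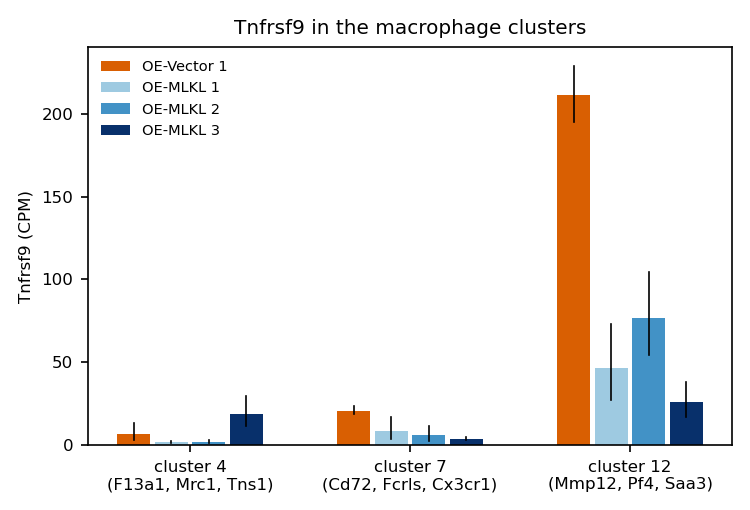
Tnfrsf9 in CPM on the vertical axis, from 0, in the 3 macrophage clusters, with 1 bar per library and lines for the exact 95% Poisson interval. In cluster 12 the bar of OE-Vector 1 reaches 211 CPM and those of OE-MLKL lie between 26.2 and 76.5 CPM.

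Transcripts of other cell types were present in these macrophages. The 10 T cell markers summed to 28.1 CPM in OE-Vector 1 and to 17.2, 12.6 and 22.6 CPM in OE-MLKL 1, 2 and 3, with none of them at 0 in any library. Markers of dendritic cells summed to 56.3 CPM in OE-Vector 1 and to 27.7, 42.8 and 67.0 CPM, and those of NK cells to 37.7 CPM and to 9.42, 10.5 and 21.5 CPM, where Ncr1, Klrb1c and Klra8 were at 0 in at least 1 library. Endothelial markers summed to 82.7 CPM in OE-Vector 1 and to 29.7, 42.8 and 73.6 CPM. Of the Tnfrsf9 UMIs in the macrophages of OE-Vector 1, 17.7% were in cells with a T cell marker UMI, a feature of 17.3% of those macrophages. For a UMI of the endothelial markers the figures were 53.9% of the Tnfrsf9 UMIs and 40.1% of the cells, and for the 6 mature dendritic genes 29.4% and 18.7%. The part of other cell types in the macrophage values was not tested.

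The remaining members in macrophages are given likewise without a test. Tnfsf9, the ligand of 4-1BB, was at 14.2 CPM in OE-Vector 1 and at 30.5, 18.3 and 16.2 CPM in OE-MLKL 1, 2 and 3 (21.7 ± 7.72, SD, n = 3), above it in all 3. Tnfsf14, which encodes LIGHT, the ligand of HVEM and the lymphotoxin beta receptor, was also higher in all 3, with 4.04 CPM in OE-Vector 1 and 12.1, 5.62 and 5.36 CPM in the OE-MLKL libraries, although in OE-Vector 1 and OE-MLKL 3 it did not exceed the empty droplets. Cd40 overlapped, at 26.4 CPM in OE-Vector 1 and at 14.7, 26.8 and 25.2 CPM, and was above the empty droplets in every library. Tnfrsf4, Tnfrsf18, Cd27 and Ltb were below the empty droplets in each library, and are background in the sense of level given above. Ltb was at 7.43 CPM in OE-Vector 1 and at 2.75, 3.56 and 5.23 CPM, Tnfrsf18 at 2.53 CPM and at 1.25, 1.90 and 1.19 CPM, and Tnfrsf4 and Cd27 lay between 1.42 and 2.29 CPM. In all, 3 of 8 members were lower and 2 higher than OE-Vector 1 in every OE-MLKL library, where 18% of the 14136 genes tested were lower and 34.6% higher. The edgeR fit across all genes of this class called 0% of them at an adjusted p of 0.05, with 814 genes under 0.05 before adjustment, 84 called by DESeq2 and 0 by limma-voom.

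Among the T cell receptors, Tnfrsf4 (OX40), which prolongs the life of activated CD4 T cells, was highest in Foxp3 T cells. Its level was 1139 CPM in OE-Vector 1 and 1025, 744 and 1092 CPM in OE-MLKL 1, 2 and 3 (954 ± 185, SD, n = 3). Conventional CD4 T cells had 306 CPM in OE-Vector 1 and 469, 415 and 536 CPM in OE-MLKL (473 ± 60.8, SD, n = 3), and CD8 T cells had 66.1 CPM and 156, 170 and 90.1 CPM (139 ± 42.9, SD, n = 3). The 2 conventional subsets were therefore above OE-Vector 1 in each OE-MLKL library, and the Foxp3 T cells below it in each. NK cells held 0, 0, 1 and 2 Tnfrsf4 UMIs, and macrophages, neutrophils and cancer cells were below the empty droplets. Its ligand Tnfsf4 was highest in mature dendritic cells, at 11.5 CPM in OE-Vector 1 and at 0, 27.5 and 19.2 CPM in the OE-MLKL libraries, on no more than 4 UMIs in any library.

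Tnfrsf18 (GITR), a receptor carried at high level by regulatory T cells, followed the same order of T cell subsets. In Foxp3 T cells it was at 854 CPM in OE-Vector 1 and at 590, 640 and 810 CPM in OE-MLKL 1, 2 and 3, and in conventional CD4 T cells at 318 CPM and at 400, 397 and 450 CPM. In CD8 T cells it was at 126 CPM in OE-Vector 1 and at 197, 227 and 126 CPM, so that OE-MLKL 3 did not differ from OE-Vector 1. Outside T cells it was above the empty droplets in every library in NK cells (165 CPM in OE-Vector 1 and 109, 107 and 96.7 CPM in OE-MLKL), mature and cDC1 dendritic cells, and neutrophils (17.3 CPM and 12.99, 13.09 and 17.3 CPM). Tnfsf18, the ligand of GITR, reached no more than 7 UMIs in any class and library.

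Cd27, a receptor of naive and memory lymphocytes that binds Cd70, was above the empty droplets in every library in T cells and NK cells. Foxp3 T cells had 213 CPM in OE-Vector 1 and 155, 215 and 277 CPM in OE-MLKL 1, 2 and 3, which overlapped. CD8 T cells had 192 CPM in OE-Vector 1 (175 to 210) and 137, 135 and 177 CPM, lower in all 3. Conventional CD4 T cells had 43.0 CPM in OE-Vector 1 (30.9 to 58.3) and 125, 135 and 157 CPM (139 ± 16.3, SD, n = 3), higher in all 3, on 41 UMIs in OE-Vector 1 and 20, 52 and 53 UMIs in the OE-MLKL libraries. The share of conventional CD4 T cells with a Cd27 UMI was 16.8% in OE-Vector 1, against 27.6, 28.3 and 29.9% in the OE-MLKL libraries, and after thinning it was 2.49%, against 6.19, 7.04 and 7.79%. Cd70 was at 17.3 CPM in mature dendritic cells of OE-Vector 1 and at 37.2, 82.5 and 48.1 CPM in those of OE-MLKL, on 6, 1, 12 and 10 UMIs. Cd27 overlaps Vamp1 on the opposite strand (chromosome 6, 125232622 to 125237010, minus strand).

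Ltb, lymphotoxin beta, which anchors lymphotoxin alpha on the lymphocyte surface and directs lymphoid tissue organisation, was the one member above the empty droplets of every library in all 5 lymphocyte classes. Foxp3 T cells had 854 CPM in OE-Vector 1 and 562, 609 and 699 CPM in OE-MLKL 1, 2 and 3. Conventional CD4 T cells had 658 CPM and 281, 422 and 509 CPM, and CD8 T cells 492 CPM and 271, 255 and 327 CPM. NK cells had 548 CPM and 299, 413 and 398 CPM, and B cells 327 CPM and 132, 142 and 216 CPM. In each of these 5 classes every OE-MLKL library was below OE-Vector 1. The share of all genes that did so was not computed for NK and B cells. Among the NK cells of OE-MLKL 1, 4 of 15 held an Ltb UMI. The B cell class included cluster 29, led by Jchain, Iglc1 and Ighg2b, with a median of 7123 UMIs per cell. It gave 18 of the 144 B cells of OE-Vector 1, and 19 of 98, 17 of 75 and 14 of 60 in OE-MLKL 1, 2 and 3. The part of this cluster in the B cell levels was not tested. Free Ltb RNA went the same way, at 79.6 CPM in the empty droplets of OE-Vector 1 and at 15.1, 26.8 and 63.2 CPM in those of the OE-MLKL libraries, and its part in the result was not tested. The lymphotoxin beta receptor gene Ltbr was at 53.2 to 70.9 CPM in macrophages, near its empty-droplet level of 47.0 to 65.8 CPM.

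**Figure D3:**
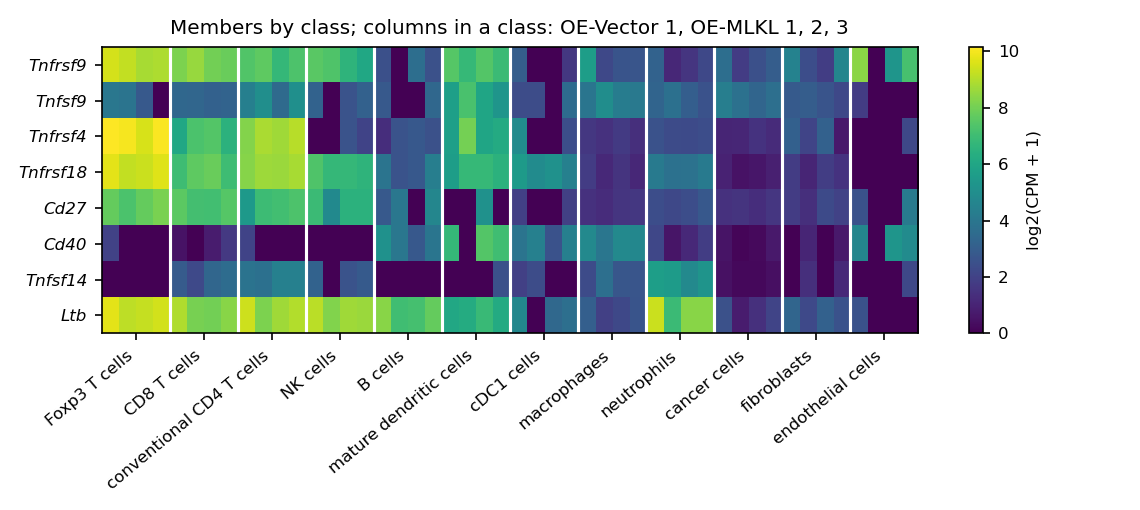
The level of the 8 members, as log2(CPM + 1) by colour, in 12 cell classes. Within each class the 4 columns stand for OE-Vector 1 and OE-MLKL 1, 2 and 3, and in each library Tnfrsf4, Tnfrsf18, Tnfrsf9 and Ltb have their highest level in Foxp3 T cells.

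The effect of the label on the members was tested with edgeR's quasi-likelihood fit to UMI counts summed per library and class. With 1 OE-Vector library, the spread within a group came from the 3 OE-MLKL libraries alone, and 2 residual degrees of freedom remained. edgeR pools this spread over genes, so its p-values are not measured against each gene's own 3 libraries alone. An exact permutation test of any single value could not go below p = 0.25. By the study's methods each library held the cells of 1 tumour. Every comparison uses the same OE-Vector library, so that a value particular to it enters each of them. A fit without OE-MLKL 3 compares OE-Vector 1 with OE-MLKL 1 and 2 alone, which shared most of their clusters with each other. In such a fit the label and this grouping of libraries cannot be told apart, and fewer residual degrees of freedom remain. What passes there and not with all libraries is not read as an effect of the label. None of the 8 members passed an adjusted p of 0.05 in CD8 T cells, conventional CD4 T cells, Foxp3 T cells, dendritic cells, neutrophils or cancer cells, by edgeR, DESeq2 or limma-voom. The counts before adjustment and the shares of all genes are given with each class.

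In CD8 T cells, 7 members could be tested and Cd40 was too low. Tnfrsf4 was higher in all OE-MLKL libraries (log2 fold change 1.07 ± 0.48 SE) and Ltb was lower in all 3 (-0.82 ± 0.35 SE), and these were the 2 members under 0.05 before adjustment by edgeR, with an adjusted p of 1.0 for both. Tnfrsf9 had a log2 fold change of 0.02 ± 0.44 SE, with OE-MLKL libraries on both sides of OE-Vector 1. Tnfsf9 was at 9.56 CPM in OE-Vector 1 and at 9.11, 7.91 and 8.31 CPM in OE-MLKL, and Tnfsf14 at 6.65 CPM and at 3.75, 9.35 and 10.9 CPM. In all, 3 members (Cd27, Ltb and Tnfsf9) were lower in every OE-MLKL library and 1 (Tnfrsf4) was higher, beside 18.9% and 24.8% of the 10626 genes tested. Of these genes edgeR called 0%, with 453 under 0.05 before adjustment, and DESeq2 called 5 and limma-voom 0. Without OE-MLKL 3, Tnfrsf4 passed (1.37, adjusted p = 0.0020), one of 333 genes (3.29%) called by that fit. CD8 T cells of OE-Vector 1 and OE-MLKL 3 lay mostly in cluster 16 (54.8 and 78.1%), and those of OE-MLKL 1 mostly in cluster 9 (66.7%), while those of OE-MLKL 2 were spread over clusters 9, 21 and 18 (41.0, 30.6 and 27.4%). In cluster 18, which held 18.4 to 27.4% of the CD8 T cells of each library, Tnfrsf4 was at 79.8 CPM in OE-Vector 1 and at 142, 199 and 99.9 CPM in OE-MLKL 1, 2 and 3, and Tnfrsf9 at 276 CPM and at 381, 292 and 315 CPM. Tnfrsf9 ran the other way in cluster 9, at 694 CPM in the 25 cells of OE-Vector 1 and at 404, 273 and 332 CPM in the OE-MLKL libraries, the last of these in 3 cells. In cluster 16 it was at 270 CPM in OE-Vector 1 and at 176 CPM in OE-MLKL 3, with 5 cells from OE-MLKL 1 and 1 from OE-MLKL 2.

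In conventional CD4 T cells, 6 members were tested, and Cd40 and Tnfsf14 were not. Cd27 had the lowest adjusted p of the family there (log2 fold change 1.60 ± 0.52 SE, edgeR adjusted p = 0.16) and was the 1 member under 0.05 before adjustment. Without OE-MLKL 3 the value was 1.60 with an adjusted p of 0.0018, and then 189 genes (2.95%) were called. Tnfrsf4 (0.53 ± 0.50 SE) and Tnfrsf18 (0.30 ± 0.49 SE) were also higher in every OE-MLKL library, and Ltb was lower (-0.79 ± 0.47 SE). Tnfsf9 overlapped, at 19.9 CPM in OE-Vector 1 and at 31.3, 10.4 and 32.6 CPM on no more than 19 UMIs, as did Tnfsf14 at 13.6 CPM and at 12.5, 20.7 and 20.7 CPM. Cd40 had 3 UMIs in OE-Vector 1 and none in OE-MLKL. These counts, 3 higher and 1 lower, compare with 24.9% and 17.8% of the 6667 genes tested. Of all genes, 0.6% were called (40 by edgeR, 2 by DESeq2 and 10 by limma-voom), and 428 were under 0.05 before adjustment. Cells of OE-Vector 1 and OE-MLKL 3 lay mainly in cluster 19 (71.1 and 73.8%) and those of OE-MLKL 1 and 2 in cluster 9 (74.1 and 66.9%). Within cluster 19, Cd27 was at 40.3 CPM in OE-Vector 1, on 21 UMIs, and at 149 CPM in OE-MLKL 3, on 35 UMIs. In cluster 9 it was at 147 and 157 CPM in OE-MLKL 1 and 2, and OE-Vector 1 was above both at 311 CPM, on 3 UMIs in 4 cells. In cluster 22 OE-Vector 1 had 172 CPM in 7 cells, between OE-MLKL 1 (156 CPM, 1 cell) and OE-MLKL 2 and 3 (355 and 581 CPM, 8 and 10 cells). In cluster 18 Cd27 was at 30.9 CPM in OE-Vector 1 and at 67.0, 56.4 and 84.9 CPM in OE-MLKL 1, 2 and 3. These rest on 12 UMIs in OE-Vector 1 and on 2, 6 and 4 in OE-MLKL. Clusters 9 and 22 held only 4 and 7 cells of OE-Vector 1. In them Tnfrsf4 and Tnfrsf18 were higher in OE-Vector 1 than in every OE-MLKL library present, against the direction of the class. Tnfrsf4 was at 933 CPM in cluster 9 of OE-Vector 1 and at 490 and 420 CPM in OE-MLKL 1 and 2, and in cluster 22 at 1068 CPM and at 934, 559 and 955 CPM in OE-MLKL 1, 2 and 3. Tnfrsf18 was at 1037 CPM and at 490 and 392 CPM in cluster 9, and at 1137 CPM and at 311, 457 and 872 CPM in cluster 22. Clusters 19 and 18 held 135 and 41 cells of OE-Vector 1. Of OE-MLKL 1, 2 and 3, cluster 19 held 4, 5 and 79 cells, and cluster 18 held 4, 17 and 6. Tnfrsf4 in cluster 19 was at 316 CPM in OE-Vector 1 and at 560, 57.3 and 525 CPM in OE-MLKL 1, 2 and 3, the latter on 7, 1 and 123 UMIs. In cluster 18 it was at 224 CPM and at 167, 498 and 637 CPM. Tnfrsf18 was at 334 CPM and at 240, 229 and 431 CPM in cluster 19, and at 222 CPM and at 167, 488 and 573 CPM in cluster 18. Cd40lg, the ligand of Cd40, was at 69.2 CPM in the conventional CD4 T cells of OE-Vector 1 and at 25.02, 38.9 and 32.6 CPM in those of OE-MLKL, on 66, 4, 15 and 11 UMIs.

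In Foxp3 T cells, which are regulatory T cells by their defining factor, 5 members were tested, and Tnfsf9 (5, 1, 1 and 0 UMIs), Cd40 (1 UMI, in OE-Vector 1) and Tnfsf14 (no UMI) were too low. Tnfrsf9 (log2 fold change -0.59 ± 0.46 SE), Tnfrsf4 (-0.31 ± 0.51 SE), Tnfrsf18 (-0.38 ± 0.49 SE) and Ltb (-0.50 ± 0.48 SE) were each lower in every OE-MLKL library, and Cd27 was not (-0.00 ± 0.49 SE). That is 4 members lower and 0 higher, beside 20.3% and 21.7% of the 4196 genes tested. No member was under 0.05 before adjustment. The background was 0.286% of genes called, 12 by edgeR, 0 by DESeq2 and 2 by limma-voom, with 224 under 0.05 before adjustment. The class held 63 cells in OE-Vector 1 and 24, 58 and 61 in the OE-MLKL libraries, at least 95.8% of them in cluster 22.

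**Figure D4:**
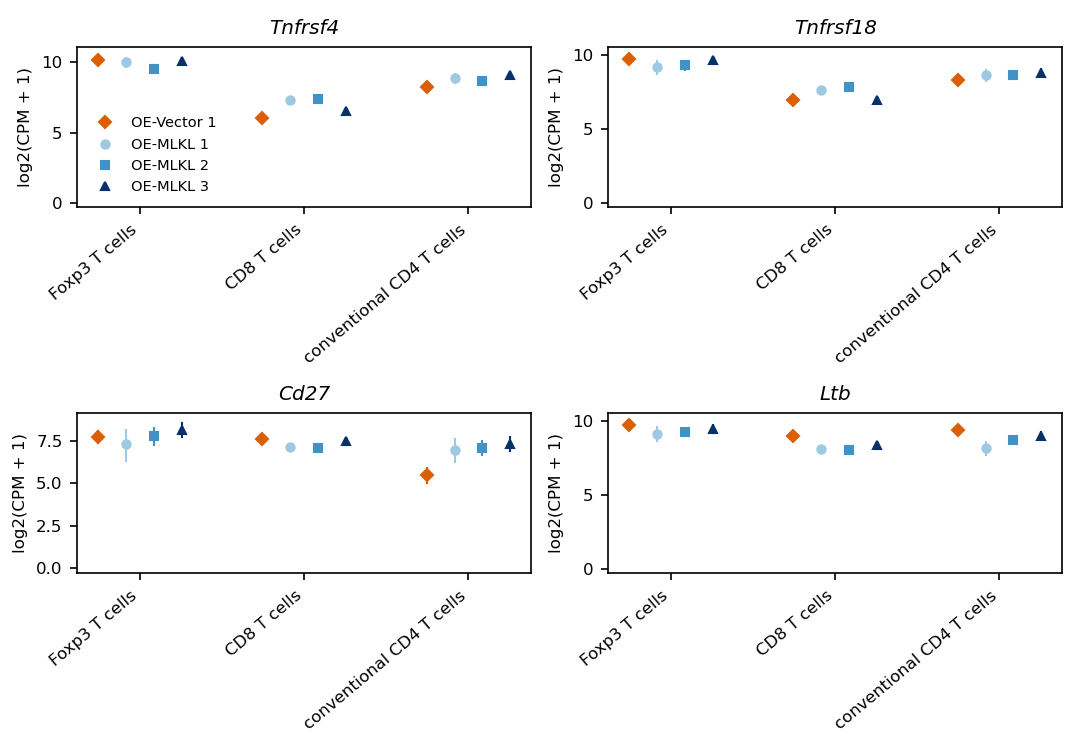
Levels of Tnfrsf4, Tnfrsf18, Cd27 and Ltb, as log2(CPM + 1), in the 3 T cell subsets, with 1 point per library and lines for the exact 95% Poisson interval. Cd27 in conventional CD4 T cells is at 43.0 CPM in OE-Vector 1 and at 125 to 157 CPM in OE-MLKL, and Ltb is lower in every OE-MLKL library in each subset.

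Whether the effect of the label differed between cell classes was then asked for each member with an interaction term. This test was added after the values had been seen, and its p-values likewise rest on a spread pooled over genes. Across the 15 pairs of the 6 tested classes, 4 of 111 tests of a member passed, and all 4 lay among the T cell subsets. For Cd27 the effect in conventional CD4 T cells exceeded that in CD8 T cells by 1.96 ± 0.32 (SE, log2, edgeR adjusted p = 7.2e-05), one of 0.714% of genes called for that pair. It passed on leaving out each OE-MLKL library in turn (1.90 to 1.98, largest adjusted p = 0.00017). The effect on Cd27 in Foxp3 T cells was below that in conventional CD4 T cells (-1.61 ± 0.41 SE, adjusted p = 0.017, where 0.646% of genes were called), but missed the threshold without OE-MLKL 1 (-1.56, adjusted p = 0.053) and without OE-MLKL 2 (-1.60, adjusted p = 0.081).

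Tnfrsf4 differed between the same subsets. Its effect in Foxp3 T cells was below that in CD8 T cells by edgeR (-1.41 ± 0.26 SE, adjusted p = 0.00012, where 0.322% of genes were called) and below that in conventional CD4 T cells (-0.90 ± 0.25 SE, adjusted p = 0.038). Both missed the threshold without OE-MLKL 2, at -1.07 (adjusted p = 0.061) and -0.82 (adjusted p = 0.17). Tnfrsf18 had the same sign between Foxp3 and CD8 T cells but did not pass (-0.92 ± 0.26 SE, edgeR adjusted p = 0.083), and the differences for Tnfrsf9 and Ltb among the T cell subsets were not called. In the other 12 pairs 0 of 93 member tests passed by edgeR, 18 were under 0.05 before adjustment, and 0.191% of all gene tests were called; no other tool was run on this question. Without OE-MLKL 3, 13 member tests passed in those pairs, where that fit called 2.93% of all gene tests. The subsets compared come from the same libraries, and the clusters that fill the CD8 and conventional CD4 gates differ between libraries as given above.

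Among the ligands and receptors of antigen-presenting cells, Cd40, which licenses dendritic cells when engaged by helper T cells, was highest in mature dendritic cells. It had 107 CPM in OE-Vector 1 and 0, 172 and 130 CPM in OE-MLKL 1, 2 and 3, and the 0 was measured in 8 cells, where a floor of 3 UMIs corresponds to 112 CPM. Tnfsf9 was also highest there, with 51.9 CPM in OE-Vector 1 and 149, 61.9 and 38.4 CPM in OE-MLKL, on 18, 4, 9 and 8 UMIs. B cells had a Cd40 level of 34.0 CPM in OE-Vector 1 and 15.2, 5.92 and 14.4 CPM, on 22, 3, 1 and 3 UMIs. Cluster 29 is included in these values, and its part in them was not tested. In Tnfsf9 the macrophages were above the empty droplets in every library, and CD8 T cells were so in OE-MLKL 2 alone.

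In dendritic cells as a class, 7 members were tested and Tnfsf14 was not. Tnfrsf9 was at 46.7 CPM in OE-Vector 1 and at 5.75, 41.8 and 15.8 CPM in OE-MLKL 1, 2 and 3 (log2 fold change -1.20 ± 0.58 SE). Tnfrsf4 was at 27.9 CPM and at 13.4, 13.9 and 11.7 CPM (-1.16 ± 0.50 SE), and was the 1 member under 0.05 before adjustment. One cell of the cDC1 gate carried 15 of the 40 Tnfrsf4 UMIs of OE-Vector 1, and without it the level there was 17.6 CPM. In the mature gate the direction was the opposite, with 51.9 CPM in OE-Vector 1 and 261, 61.9 and 72.1 CPM in the OE-MLKL libraries. Tnfrsf18 (44.6 CPM in OE-Vector 1 and 42.2, 58.8 and 28.99 CPM), Cd40 (39.7 CPM and 23.01, 54.2 and 34.1 CPM) and Ltb (73.8 CPM and 55.6, 97.5 and 36.1 CPM) overlapped, and Tnfsf14 had at most 5 UMIs in a library. Cd27 and Tnfsf9 were higher in every OE-MLKL library, at 19.5 CPM in OE-Vector 1 and 28.8, 43.3 and 23.9 CPM for Tnfsf9, and on 2 UMIs in OE-Vector 1 and 1, 8 and 6 UMIs for Cd27. Thus 2 members were lower and 2 higher, beside 21.4% and 24.1% of the 9209 genes tested. Of these, 0.0217% were called by edgeR (2 genes), 7 by DESeq2 and 1 by limma-voom, with 421 under 0.05 before adjustment. Mature cells made up 52 of 157 dendritic cells in OE-Vector 1 and 8 of 98, 29 of 127 and 32 of 226 in the OE-MLKL libraries, and the part of this share in the Tnfrsf9 level of the class was not tested.

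In neutrophils, Ltb, Tnfsf14 and Tnfrsf18 were above the empty droplets in every library. Ltb was at 657 CPM in OE-Vector 1 (639 to 675) and at 119, 328 and 328 CPM in OE-MLKL 1, 2 and 3 (259 ± 121, SD, n = 3), lower in all 3. Its log2 fold change was -1.56 ± 0.55 SE (edgeR adjusted p = 0.58), and -1.74 without OE-MLKL 3 (adjusted p = 0.057). The share of neutrophils with an Ltb UMI was 45.2% in OE-Vector 1, against 8.14, 20.9 and 32.3% in the OE-MLKL libraries, and after thinning it was 25.7%, against 5.49, 14.6 and 14.4%. Tnfsf14 was at 50.4 CPM in OE-Vector 1 and at 46.3, 26.3 and 37.3 CPM (-0.66 ± 0.38 SE). Neutrophils of OE-Vector 1 lay mainly in cluster 5 (66.6%), those of OE-MLKL 3 in cluster 8 (65.8%) and those of OE-MLKL 1 and 2 in clusters 0 and 3. Ltb, though kept out of the clustering, was among the 10 leading genes of cluster 5, which held 0.0749, 0.462 and 6.14% of the neutrophils of OE-MLKL 1, 2 and 3. Within cluster 5, Ltb was at 730 CPM in OE-Vector 1 and at 296 CPM in the 381 cells of OE-MLKL 3, and within cluster 11, which held 23.2 and 26.7% of the neutrophils of these libraries, at 624 and 335 CPM. In clusters 0 and 3 OE-Vector 1 had 27 and 4 cells, at 218 and 374 CPM, beside 111 and 125 CPM in OE-MLKL 1 and 329 and 328 CPM in OE-MLKL 2.

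Tnfrsf9 in neutrophils had a log2 fold change of -1.99 ± 0.56 SE (edgeR adjusted p = 0.55) at levels of 8.16 CPM in OE-Vector 1 and 1.18, 2.00 and 3.65 CPM in OE-MLKL, all below the empty droplets. It passed without OE-MLKL 3 (-2.47, adjusted p = 0.018), among 1278 genes (10.3%) called by that fit. T cell markers in these neutrophils summed to 47.6 CPM in OE-Vector 1 and to 40.4, 20.5 and 44.2 CPM. NK cell markers summed to 37.2 CPM in OE-Vector 1 and to 6.37, 8.93 and 30.8 CPM, lower in all 3 like Ltb and Tnfrsf9, and the part of either list in these results was not tested. Together, 6 of 8 members were lower in every OE-MLKL library and 0 higher, beside 17.5% and 40% of the 12909 genes tested, with Tnfrsf9 and Ltb the 2 under 0.05 before adjustment. Among all genes 0% were called by edgeR, with 1064 under 0.05 before adjustment, 94 called by DESeq2 and 0 by limma-voom. Tnfrsf4 was at 4.90 CPM in OE-Vector 1 and at 4.01, 3.85 and 4.22 CPM, and Cd40 at 3.52 CPM and at 0.472, 1.23 and 2.62 CPM. The 2 members that overlapped were Tnfsf9 (8.79 CPM and 12.3, 7.09 and 4.90 CPM) and Cd27 (4.27 CPM and 3.54, 4.31 and 5.93 CPM). Of the 6 lower members, Tnfrsf9, Tnfrsf4 and Cd40 were not above the empty droplets in every library. Tnfrsf18 counted as lower at 17.33 CPM in OE-Vector 1 against 17.32 CPM in OE-MLKL 3. The median log2 fold change was -0.57 over the members, those at background included, and 0.04 over all genes.

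Cancer cells, a class named by markers alone, had low levels of all 8 members. Whether each of them was an injected cell was not tested, and 21 lay in cluster 37, led by 4930539E08Rik, Lypd8 and Muc3. Tnfsf9 was the 1 member above the empty droplets in every library, at 19.6 CPM in OE-Vector 1 and at 12.98, 8.81 and 12.2 CPM in OE-MLKL 1, 2 and 3, against 11.5 CPM and 12.6, 7.69 and 9.10 CPM in the empty droplets. Its log2 fold change was -0.88 ± 0.32 SE and was -0.84 without OE-MLKL 3. Tnfrsf9 was at 11.7 CPM in OE-Vector 1 and at 2.52, 4.62 and 7.01 CPM (-1.44 ± 0.48 SE), below the empty droplets throughout. These were the 2 members under 0.05 before adjustment, with edgeR adjusted p = 0.999 for both. Ltb was at 4.73 CPM in OE-Vector 1 and at 0.700, 1.63 and 3.23 CPM, Tnfrsf18 at 0.943 CPM and at 0.399, 0.512 and 0.865 CPM, and Tnfsf14 at 0.374 CPM and at 0.169, 0.154 and 0.340 CPM. Tnfrsf4 was at 1.054 CPM and at 1.16, 1.77 and 1.40 CPM, whereas Cd27 (1.76 CPM and 1.86, 1.51 and 2.07 CPM) and Cd40 (0.444 CPM and 0.0966, 0.205 and 0.610 CPM) overlapped. In all, 5 members were lower and 1 was higher in every OE-MLKL library, beside 18.1% and 31.1% of the 16728 genes tested, and 0.00598% of the genes were called (1 by edgeR, 77 by DESeq2 and 0 by limma-voom, 753 before adjustment). Of the 5 lower members, only Tnfsf9 was above the empty droplets in every library. The median was -0.84 over the members, those at background included, and 0.03 over all genes. Cluster 2 held 89.7% of the cancer cells of OE-Vector 1 and 97.5% of those of OE-MLKL 3, but 8.10 and 13.2% of those of OE-MLKL 1 and 2, which lay mainly in clusters 1 and 6. In cluster 2, Tnfsf9 was at 18.9 CPM in OE-Vector 1 and at 12.8, 6.89 and 12.1 CPM in the OE-MLKL libraries, and in cluster 6 at 25.1 CPM and at 12.8, 10.6 and 22.9 CPM. Cancer cells of OE-Vector 1 held a median of 26258 UMIs, and those of OE-MLKL 1, 2 and 3 held 11504, 11308 and 21288. T cell markers in the cancer cells summed to 16.1 CPM in OE-Vector 1 and to 5.35, 6.71 and 15.4 CPM, and their part in the result was not tested.

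**Figure D5:**
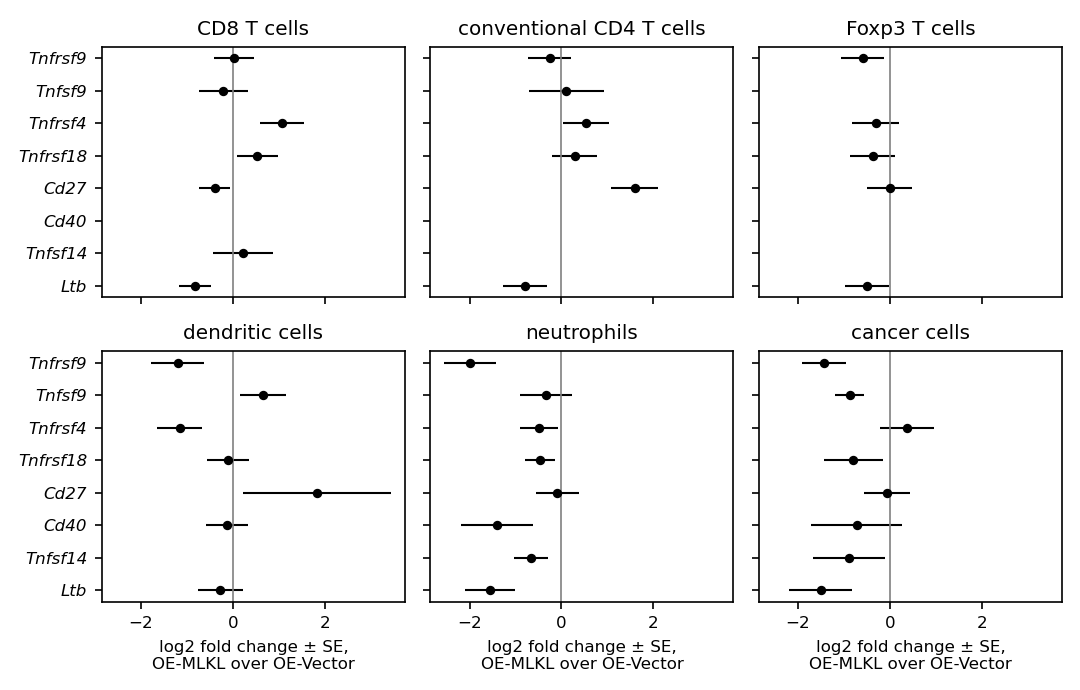
Log2 fold change, OE-MLKL over OE-Vector, with its standard error, for each member that could be tested in 6 cell classes (edgeR, 1 OE-Vector and 3 OE-MLKL libraries); members without a point were too low to test. Cd27 in conventional CD4 T cells lies at 1.60, Tnfrsf9 in neutrophils at -1.99, and no member passed the adjusted threshold.

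The wider pathway was read from 5 lists with 66 genes in all, namely partners and decoys of the members, other TNF family ligands, other TNF family receptors, TRAF and NF-kappaB signalling, and CD28 family costimulation. None of their genes passed the edgeR threshold in any of the 6 classes or in macrophages. Between 21 and 58 of the 66 could be tested in a class, and 1 to 8 of them were under 0.05 before adjustment. DESeq2 called Tnfrsf1b in neutrophils and Pdcd1lg2 in macrophages, and limma-voom called none in any class. Without OE-MLKL 3, edgeR called 12 of the 45 then tested in neutrophils, among them Relb, Rel, Nfkbie, Traf1, Traf3 and Tnip1 of the NF-kappaB pathway, all 12 lower, beside 1278 genes in all, and 0 to 3 in each other class. The rest of the 12 neutrophil genes were Cd274, Cd80, Fas, Pdcd1lg2, Tnfrsf1b and Tnfrsf8, of the receptor and CD28 family lists. The fit without OE-MLKL 3 called 10.3% of all 12378 genes tested in neutrophils, and how many of those were lower is not given here. In that fit the label and the grouping of libraries cannot be told apart. With all libraries, the median log2 fold change of the listed genes was -0.47 in neutrophils and -0.29 in cancer cells. There the medians over all genes were 0.04 and 0.03. In the other classes, macrophages included, the median of the listed genes lay between -0.10 and 0.09.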

How the data were processed

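Droplet single-cell 3' v2 libraries of dissociated tumours were analysed as 1 OE-Vector and 3 OE-MLKL samples, grouped by the titles in the labels. The deposited matrices hold UMI counts per gene and barcode, which the authors made with Cell Ranger against mm10, with no normalization; the matrix header names version 7.1.0 and the submitters' processing notes 2.1.1, and whether intronic reads were counted is not given in the sources used here. The matrices are unfiltered. Cells were kept with at least 500 UMIs, more than 200 genes, at most 10% mitochondrial and at most 5% haemoglobin counts, and 11363 putative doublets were removed at 0.8% per 1000 cells. Clusters came from 2000 variable genes without the member and pathway genes, 10 principal components, 20 neighbours and Leiden resolution 1 (leidenalg 0.10.2, igraph 0.11.9). A cluster was named where at least 3 markers of 1 list were detected and raised. It was left unnamed where another list led its top genes, or where it was shallow with no own marker among them. In all, 3825 cells were left unnamed. They include cluster 20 (357 cells, led by Gzma, Cd7 and Trdc), which had 9 raised T cell markers and is not in the T cell values. It held 180 cells of OE-Vector 1 and 22, 33 and 122 of OE-MLKL 1, 2 and 3. NK cells are the NK cell clusters, not a gate among T cells.

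For the tests, the UMI counts of a class were added up within each library and fitted with edgeR 4.0.16 (R 4.3.3; TMM, filterByExpr, quasi-likelihood), with Benjamini-Hochberg adjustment over all genes of the class and a threshold of 0.05, two-sided. The study's own test over cells was not used, since it treats cells of the same tumour as independent. The fit was also run on simulated counts, and the outcome is not given here. Alternatives were library-size scaling, DESeq2 1.42.0, limma-voom 3.58.1, no filter on low counts, each OE-MLKL library left out, doublets kept, at least 1000 UMIs and 500 genes, resolutions 0.5 and 2, and marker gates over all cells. The test of the difference of effect between classes was chosen after seeing the data. Intervals are exact 95% Poisson or binomial and cover counting error only. All members are named in each tested class and in macrophages and are plotted for the other classes, partners by level, pathway genes only where called. The members and lists were chosen with earlier results of these data known. Positions are from GENCODE vM21 (GRCm38), where 32158 of 32285 genes were found, and promoters from RefSeq.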

Additional observations from a re-analysis of the deposited data

Results flagged for a closer look

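The effect of the label differed between T cell subsets for 4 member comparisons in an edgeR fit with an interaction term, out of 18 such tests, while 0.322 to 0.714% of all genes were called in the pairs of subsets. The test was added after the values had been seen, and its p-values rest on a spread pooled over genes. Without OE-MLKL 2 only 1 of the 4 was left, Cd27 between conventional CD4 and CD8 T cells, where that fit called 0.467% of all gene tests. For Cd27 the effect in conventional CD4 T cells minus that in CD8 T cells was 1.96 (log2), with higher levels than OE-Vector 1 in 3 of 3 OE-MLKL libraries in conventional CD4 T cells and lower levels in 3 of 3 in CD8 T cells. For Cd27 the effect in Foxp3 T cells minus that in conventional CD4 T cells was -1.61. Conventional CD4 T cells lay mainly in cluster 19 in OE-Vector 1 and OE-MLKL 3, and in cluster 9 in OE-MLKL 1 and 2. In cluster 19 their Cd27 was at 40.3 CPM in OE-Vector 1 and at 0, 172 and 149 CPM in OE-MLKL. These OE-MLKL values rest on 0, 3 and 35 UMIs in 4, 5 and 79 cells. In cluster 9 it was at 311 CPM in 4 cells of OE-Vector 1, against 147 and 157 CPM in OE-MLKL 1 and 2. In cluster 22 it was at 172 CPM and at 156, 355 and 581 CPM, in 7 cells and in 1, 8 and 10 cells. For Tnfrsf4 the effect in Foxp3 T cells was -1.41 relative to CD8 T cells and -0.90 relative to conventional CD4 T cells. By CPM, Foxp3 T cells were below OE-Vector 1 in 3 of 3 OE-MLKL libraries, and both other subsets above it in 3 of 3. After thinning, 41.0% of the Foxp3 T cells of OE-Vector 1 held a Tnfrsf4 UMI. OE-MLKL 1 and 3 were close to this share, with 41.3 and 40.8%, and OE-MLKL 2 was lower, with 31.6%. The thinned shares of both other subsets stayed higher in 3 of 3. Cluster 22 holds the Foxp3 T cells and also some cells of the conventional CD4 gate, whose identity was not tested. In these gate cells Tnfrsf4 was at 1068 CPM in 7 cells of OE-Vector 1, against 934, 559 and 955 CPM in 1, 8 and 10 cells. It was thus lower there in 3 of 3. Within cluster 9 Tnfrsf4 of the conventional CD4 gate was lower in both OE-MLKL libraries present (933 CPM in 4 cells, against 490 and 420 CPM). In cluster 19, with 135 cells of OE-Vector 1, Tnfrsf4 was at 316 CPM there and at 560, 57.3 and 525 CPM in OE-MLKL. These OE-MLKL values rest on 7, 1 and 123 UMIs in 4, 5 and 79 cells. In cluster 18, with 41 cells of OE-Vector 1, Tnfrsf4 was at 224 CPM and at 167, 498 and 637 CPM, the latter in 4, 17 and 6 cells. Each of the 4 comparisons rests on 1 OE-Vector library, and in that library conventional CD4 T cells held 41 Cd27 UMIs.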

How the results depend on the processing

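Over 487 alternatives to 41 fold changes of single members, 458 kept direction and side of the threshold, 3 newly passed and 26 reversed, none of which had passed. Reversed log2 fold changes were, with library-size scaling, 0.071, 0.13 and 0.042 for Cd27 in Foxp3 T cells, neutrophils and cancer cells; with limma-voom, -0.037 for Tnfrsf9 in CD8 T cells, -0.077 for Tnfsf9 in conventional CD4 T cells and 0.0067 for Cd27 in Foxp3 T cells; with no filter, -0.015 for Tnfrsf9 in CD8 T cells; with doublets kept, -0.041 for Tnfsf9 in conventional CD4 T cells, and -0.015 and 0.054 for Tnfrsf4 and Tnfsf14 in cancer cells; with marker gates, 0.15, 0.18 and 0.26 for Cd27 in Foxp3 T cells and cancer cells and Cd40 in dendritic cells; at the stricter cell filter, 0.044 for Tnfsf9, and at resolution 2, 0.046 for Cd27, both in neutrophils. The cause was not tested. Leaving out 1 OE-MLKL library gave -0.32 to 0.23 for Tnfrsf9 and -0.019 to 0.51 for Tnfsf14 in CD8 T cells, -0.18 to 0.52 for Tnfsf9 in conventional CD4 T cells, -0.14 to 0.10 for Cd27 in Foxp3 T cells, -0.40 to 0.23 for Tnfrsf18, -0.48 to 0.030 for Cd40 and -0.75 to 0.10 for Ltb in dendritic cells, and -0.29 to 0.040 and -0.13 to 0.042 for Cd27 in neutrophils and cancer cells. The count of members called went from 0 to 1 in CD8 T cells, conventional CD4 T cells and neutrophils, in each case without OE-MLKL 3, and member differences of effect called from 1 (without OE-MLKL 2) to 18 (without OE-MLKL 3), against 4 with all libraries. Over all genes, the genes called were 0 in CD8 T cells, 40 in conventional CD4 T cells, 12 in Foxp3 T cells, 2 in dendritic cells, 0 in neutrophils, 1 in cancer cells and 0 in macrophages, while the fit that leaves out OE-MLKL 3 gave the highest count of each class, 333, 189, 41, 257, 1278, 486 and 185; DESeq2 called 5, 2, 0, 7, 94, 77 and 84. In macrophages 94 of 104 alternatives moved a value by less than the spread, and the highest class was the same for 8 of 8 members after thinning. Library-size scaling moved the median of all genes by 0.14 in conventional CD4 T cells, 0.11 in Foxp3 T cells, 0.13 in cancer cells, 0.16 in macrophages and 0.24 in neutrophils. No paired analysis was possible because a matrix of only 1 OE-Vector replicate was analysed, and a block for the number would leave no residual degree of freedom.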
